A study of Mus musculus with 29 samples.

Results

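The 10 genes described here are linked to the birth of neurons, their departure from the germinal layer and their migration. They were taken by symbol from the expression table of the series, in which 10 of 25239 genes are these. Lzts1, Rnd2, Rnd3, Trnp1 and Insc are linked to detachment, to cell shape or to the division of the mother cell. Cxcr4 is the receptor for the chemokine Cxcl12, and Lrp8, Vldlr, Dab1 and Reln form the reelin pathway. The genes were chosen by their known role and with the Neurog2 versus control differences of these libraries in view, so these comparisons are given below as descriptions with no test. All 10 genes passed the filter on low values.

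The data are RNA-seq profiles of astroglial cells from the cerebral cortex of wild-type C57BL/6J mice aged 5 to 6 days. All cultures were grown for 10 days in serum-containing astrocyte medium, with bFGF at 10 ng/ml and either EGF, also at 10 ng/ml (EGF + bFGF culture), or no EGF (bFGF culture). Cells were then transduced with retroviruses, which transduce dividing cells, and were sorted by their fluorescent reporter 48 h later. The viruses carried the reporter alone (control), the proneural transcription factor Neurog2, the chromatin protein Hmgb2, or Neurog2 and Hmgb2 were given together, each driven by the ubiquitous CAG promoter. In the study the Neurog2 virus carried the reporter dsRed, the Hmgb2 virus and the control virus GFP, and Neurog2 + Hmgb2 cells received both viruses. Where the reporter or the number of viruses differs between groups, its part cannot be told apart from that of the transduced gene. The EGF + bFGF culture gave 5 control, 4 Hmgb2, 3 Neurog2 and 3 Neurog2 + Hmgb2 libraries, and the bFGF culture gave 3, 4, 4 and 3. The labels call the tissue grey matter, whereas the methods name white matter. The age is that of the methods, whereas the results text of the study gives a slightly higher upper limit. Whether replicates of a group came from separate cultures is not stated, so p-values measure the spread between these 29 libraries. Values are regularized log2 (rlog) values, on which a difference of 1 is a 2-fold change before the shrinkage that the method applies to weakly expressed genes.

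As background, neurons of the developing cortex are born at the ventricle from radial glia that are tied to their neighbours by adherens junctions. A newborn neuron loosens these junctions, leaves the ventricular surface and climbs along radial fibres, and the reelin signal, received by Lrp8 (ApoER2) and Vldlr and passed on through the adaptor Dab1, guides where it settles. Neurog2 is the proneural factor of the dorsal cortex, and Rnd2 is a known direct target of it in the embryonic mouse cortex.

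The libraries were checked against their labels through the transduced genes, whose reads sum the viral and the cellular transcript. Neurog2 was at 12.36 to 14.29 in the 13 libraries with the Neurog2 virus and at 7.74 to 8.22 in the 8 control libraries. However, the 8 libraries labelled Hmgb2 held Neurog2 at 9.35 to 11.47, above every control library and below every library with the Neurog2 virus. The cause was not tested, and each comparison with these libraries is therefore one between a high and an intermediate Neurog2 level. Hmgb2 was at 11.48 to 13.32 with its virus and at 9.34 to 10.89 without it. Astrocyte markers were high throughout, with a mean over 10 markers of 9.62 to 11.79. The mean of 18 microglia markers ranged from 4.28 to 8.46 and was above 7 in 7 libraries. Libraries correlated at 0.951 to 0.996 within groups and at 0.936 to 0.996 between groups, across genes.

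**Figure D1:**
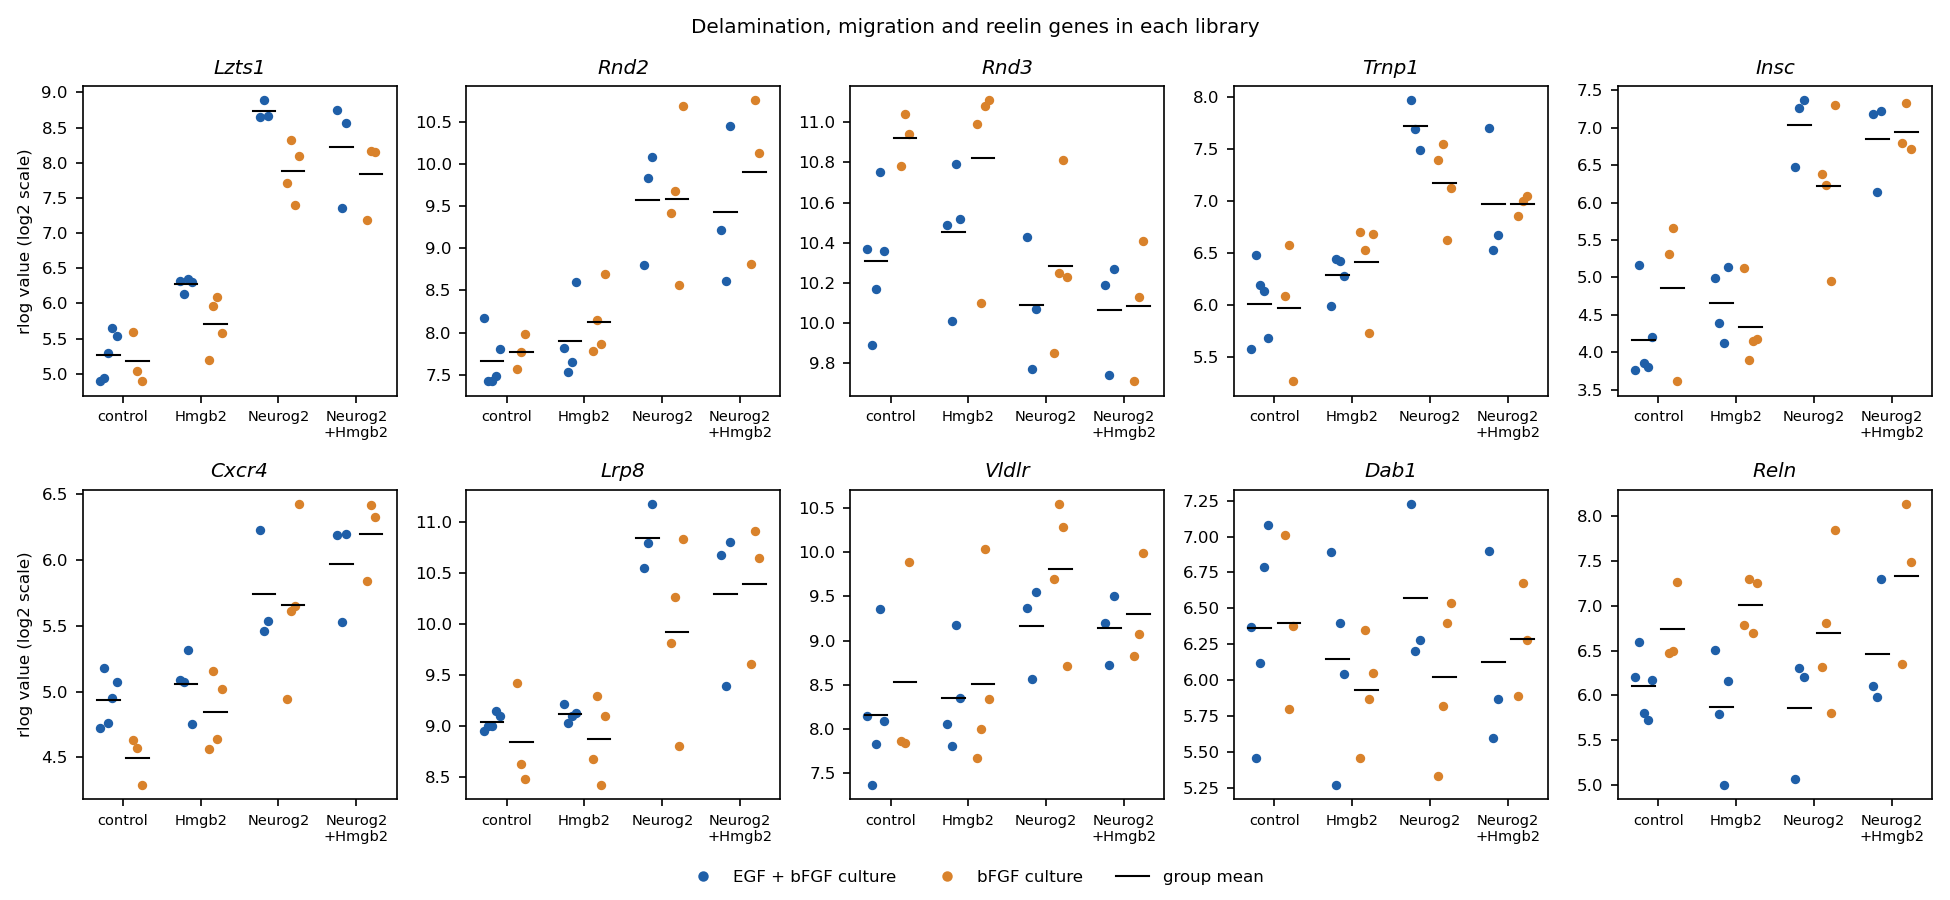
Each point is 1 library and gives the rlog value (log2 scale, y axis, a separate scale per gene) of 1 of the 10 genes, by virus (x axis) and culture (colour), with a black line at the group mean. Lzts1 lay at 7.19 to 8.89 in all 13 libraries with the Neurog2 virus and at 4.89 to 6.35 in the other 16, whereas the groups of Dab1 overlapped throughout.

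Neurog2 went with higher levels of the genes of detachment, shape and division, of Cxcr4 and of the reelin receptors, but not of Rnd3, Dab1 or Reln. In the EGF + bFGF culture, 6 of the 10 genes were higher by more than 1 in Neurog2-transduced than in control cells, where 2.32% of all 15719 tested genes were. The Neurog2 and control libraries did not overlap for 6 of the 10, against 6.65% of all tested genes. With bFGF only, 7 of the 10 were higher by more than 1, where 2.24% of all genes were, and 4 did not overlap, where 4.22% did not. The median difference of the 10 was 1.36 with EGF + bFGF and 1.18 with bFGF only, and that of all tested genes was −0.01 and 0.01. Nothing is read from these counts, since this contrast was known when the genes were listed. In bulk samples of sorted cells, a higher share of responding cells and more RNA per cell cannot be told apart.

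Lzts1, a leucine zipper protein that promotes the detachment of newborn neurons from the ventricular surface in the mouse, had the largest difference of the 10 in both cultures. The gene (ENSMUSG00000036306.13) spans 69132669 to 69184225 of chromosome 8, reverse strand, in GRCm38, the build of all positions given here. With EGF + bFGF the control libraries were at 4.90, 4.94, 5.29, 5.65 and 5.53, and the Neurog2 libraries at 8.65, 8.89 and 8.67. The groups were far apart, by 3.47 ± 0.29 (SE), or 11.1-fold on this scale. With bFGF only the control libraries were at 5.60, 5.04 and 4.89, and the Neurog2 libraries at 7.71, 8.32, 7.40 and 8.09. The difference there was 2.70 ± 0.31, and again no library overlapped. With Neurog2, every EGF + bFGF library was above every bFGF library, by 0.86 ± 0.31 on average, as were 4.99% of all tested genes, whereas the control cells of the cultures differed by 0.09 ± 0.29. Neurog2 itself was also higher in every EGF + bFGF Neurog2 library than in any bFGF one, by 0.78 ± 0.39, and its part in this and the other culture differences below was not tested.

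Insc (inscuteable, ENSMUSG00000048782.15, chromosome 7, 114743694 to 114850383, forward strand) is an adaptor that orients the mitotic spindle of progenitors. Control libraries of the EGF + bFGF culture were at 3.76, 5.17, 3.86, 3.80 and 4.21, and Neurog2 libraries at 6.47, 7.27 and 7.37. All 3 Neurog2 libraries were above all 5 controls, by 2.87 ± 0.47. The bFGF controls were at 5.31, 5.66 and 3.61 and the Neurog2 libraries at 6.38, 6.24, 4.95 and 7.30. Here the groups overlapped, since Neurog2 replicate 3 was below 2 of the 3 controls, and the difference was 1.35 ± 0.50. The response of Insc was larger with EGF + bFGF by 1.52 ± 0.69 (95% bounds 0.10 and 2.93), given here without a test. This was the largest such difference between cultures among the 10 genes, in a contrast known beforehand, so its bounds are not read as a test. For Neurog2 + Hmgb2 against the libraries labelled Hmgb2, the difference of the responses was −0.42 ± 0.70, in the other direction. Between the cultures (EGF + bFGF minus bFGF), control cells differed by −0.70 ± 0.47 and Neurog2 cells by 0.82 ± 0.50, both with overlapping libraries. The difference between Neurog2 and control cells with bFGF only ran from 0.73 to 1.78 when single libraries were left out.

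Rnd2, a small GTPase that newborn neurons need for radial migration, was at 8.17, 7.43, 7.42, 7.48 and 7.80 in EGF + bFGF control cells. With Neurog2 it was at 8.80, 9.84 and 10.08, so that the lowest Neurog2 library was above the highest control. The bFGF controls were at 7.57, 7.77 and 7.98 and the Neurog2 libraries at 9.42, 9.68, 8.56 and 10.69, again with no overlap. The differences, 1.91 ± 0.44 and 1.81 ± 0.46, were much the same in both cultures (difference of the responses 0.10 ± 0.64). The gene (ENSMUSG00000001313.12, chromosome 11, 101464999 to 101471853, forward strand) shares 226 exonic bases, 11.4% of its exon length, with Vat1 on the opposite strand. The libraries do not keep the strand, so reads of that stretch cannot be assigned to either gene from the sequence alone.

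Rnd3, a related GTPase of migrating neurons, did not share this pattern. Its gene (ENSMUSG00000017144.8) lies on chromosome 2 from 51130438 to 51149111. Control libraries of the EGF + bFGF culture were at 9.89 to 10.75 (median 10.36) and Neurog2 libraries at 10.43, 9.77 and 10.07, which overlapped (−0.22 ± 0.24). The bFGF controls were at 10.78, 11.04 and 10.94 and the Neurog2 libraries at 9.85, 10.25, 10.81 and 10.23. Of these 4 libraries 3 were below all controls, and the difference was −0.64 ± 0.26. Among control cells, Rnd3 was higher in every bFGF library than in any EGF + bFGF library (EGF + bFGF minus bFGF −0.62 ± 0.24), as were 2.81% of all tested genes.

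Trnp1, a nuclear protein that governs the balance of progenitor expansion and neurogenesis in the mouse cortex, was at 5.57, 6.48, 6.19, 6.13 and 5.68 in EGF + bFGF control cells. The Neurog2 libraries, at 7.97, 7.69 and 7.49, were all higher (1.71 ± 0.30). The bFGF controls at 6.08, 6.57 and 5.26 were below the Neurog2 libraries at 7.39, 7.55, 6.62 and 7.12, though replicate 3 of the latter exceeded the highest control by little. The bFGF difference was 1.20 ± 0.31. The gene (ENSMUSG00000056596.8) lies on chromosome 4, from 133491100 to 133498550.

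Cxcr4 (ENSMUSG00000045382.6, chromosome 1, 128588199 to 128592293), through which migrating neurons sense Cxcl12, was the weakest responder of the 7 genes in the EGF + bFGF culture. Controls there were at 4.72, 5.18, 4.76, 4.95 and 5.07 and Neurog2 libraries at 6.23, 5.46 and 5.54. The groups did not overlap, and the difference was 0.80 ± 0.26. With bFGF only the controls were at 4.63, 4.57 and 4.29 and the Neurog2 libraries at 4.94, 5.61, 5.65 and 6.43. These did not overlap either, and differed by 1.16 ± 0.27. Cxcr4 is also expressed by immune cells. The microglia marker mean was at 5.37 to 5.61 in the bFGF controls and at 7.47, 7.35, 4.77 and 8.46 in bFGF Neurog2 replicates 1 to 4. Replicate 4 had the highest microglia mean and the highest Cxcr4, and replicate 3, with the lowest microglia mean, had Cxcr4 above replicates 1 and 2. The part of microglia in the level of Cxcr4 was not tested.

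Of the reelin receptors, Lrp8 showed the clearer separation. Its gene (ENSMUSG00000028613.14) lies on chromosome 4 from 107802261 to 107876840. EGF + bFGF control cells were at 8.95, 9.00, 9.00, 9.15 and 9.10, and Neurog2 cells at 10.55, 10.79 and 11.18. The controls lay close together and below all 3 Neurog2 libraries, and the difference was 1.80 ± 0.36. Controls of the bFGF culture were at 9.42, 8.63 and 8.48 and the Neurog2 libraries at 9.81, 10.26, 8.80 and 10.83. Replicate 3 fell within the control range while the other 3 were above it, and the difference was 1.09 ± 0.37. The response was larger in the EGF + bFGF culture by 0.72 ± 0.52, an amount close to its error.

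Vldlr, the other reelin receptor, also varied within the control groups. Its gene (ENSMUSG00000024924.14) lies on chromosome 19 from 27216484 to 27254231. EGF + bFGF controls were at 8.15, 7.37, 7.83, 9.36 and 8.09 and Neurog2 cells at 9.37, 8.57 and 9.55. The bFGF controls were at 7.87, 7.84 and 9.89 and the Neurog2 libraries at 9.70, 10.55, 10.28 and 8.71. Both pairs of groups overlapped, because of control replicate 4 in the former culture and control replicate 3 in the latter. The differences were 1.01 ± 0.54 and 1.27 ± 0.56.

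The adaptor and the ligand of the pathway differed by less than their error between Neurog2 and control cells. Dab1 (ENSMUSG00000028519.16, chromosome 4, 103619359 to 104744844), the phosphoprotein that binds the tails of both receptors, differed by 0.20 ± 0.40 with EGF + bFGF and by −0.37 ± 0.42 with bFGF only. Its 29 values ran from 5.27 to 7.23, and each group overlapped with every neighbour in the order of the means. Reln (ENSMUSG00000042453.14, chromosome 5, 21884454 to 22344702), the secreted glycoprotein itself, differed by −0.24 ± 0.44 and −0.05 ± 0.46. Its groups overlapped in both cultures.

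Replicate 3 of the bFGF Neurog2 group was the lowest of its group for 6 of the 10 genes, among them Lzts1, Rnd2, Trnp1, Insc and Lrp8. It also had the lowest Neurog2 value of its group, at 12.36 against 12.56 to 13.13, and a microglia mean of 4.77 against 7.35 to 8.46. The part of either in the result was not tested. Where the 7 libraries with a microglia mean above 7 were left out, which was chosen after seeing the data, replicate 3 was the only bFGF Neurog2 library left. The errors then come from the spread of the other groups, and the lone library is assumed to vary like them. The bFGF differences were then 2.22 ± 0.39 for Lzts1, 0.79 ± 0.58 for Rnd2, 0.65 ± 0.48 for Trnp1, 0.08 ± 0.62 for Insc and −0.04 ± 0.38 for Lrp8. Cxcr4 was at 1.15 ± 0.31 and Vldlr at 1.75 ± 0.86, beside 1.16 and 1.27 with all libraries. Rnd3 went from −0.64 to −0.11 ± 0.36 and Reln from −0.05 to −0.94 ± 0.59. The same step in the EGF + bFGF culture gave differences of 3.31 for Lzts1, 3.01 for Insc and 1.01 to 1.84 for Rnd2, Trnp1, Cxcr4, Lrp8 and Vldlr.

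Promoter sequences are shown for members that stood higher with Neurog2 and for Rnd3, which did not, because Neurog2 binds the E-box, CANNTG. RefSeq windows of GRCm38.p6, from 250 bases before to 50 after a start site, were found for 8 of the 10 genes and gave 12 windows. Capitals mark each CANNTG, which reads the same on both strands, and the neurogenic form CAGATG reads CATCTG on the other strand.
Insc, chr7:114745516-114745815, forward strand: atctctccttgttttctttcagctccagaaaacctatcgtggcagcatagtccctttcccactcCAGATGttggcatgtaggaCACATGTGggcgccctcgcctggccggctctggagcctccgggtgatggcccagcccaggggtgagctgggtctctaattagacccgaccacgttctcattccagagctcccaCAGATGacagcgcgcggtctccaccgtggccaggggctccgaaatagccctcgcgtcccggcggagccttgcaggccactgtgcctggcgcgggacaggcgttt
Lrp8, second start site, chr4:107822911-107823210, forward strand: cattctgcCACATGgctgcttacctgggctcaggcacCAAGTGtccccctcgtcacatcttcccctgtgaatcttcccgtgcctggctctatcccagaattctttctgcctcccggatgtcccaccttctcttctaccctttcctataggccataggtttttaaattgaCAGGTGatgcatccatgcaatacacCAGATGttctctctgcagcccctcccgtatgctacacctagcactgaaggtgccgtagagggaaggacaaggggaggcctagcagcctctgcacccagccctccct
Rnd3, chr2:51149062-51149361, reverse strand: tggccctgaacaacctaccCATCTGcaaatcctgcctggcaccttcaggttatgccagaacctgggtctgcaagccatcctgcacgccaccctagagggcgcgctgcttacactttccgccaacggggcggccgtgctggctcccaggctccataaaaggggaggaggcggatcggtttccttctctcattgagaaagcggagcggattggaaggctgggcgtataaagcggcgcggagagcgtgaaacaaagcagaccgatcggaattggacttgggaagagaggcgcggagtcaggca
Cxcr4, chr1:128592250-128592549, reverse strand: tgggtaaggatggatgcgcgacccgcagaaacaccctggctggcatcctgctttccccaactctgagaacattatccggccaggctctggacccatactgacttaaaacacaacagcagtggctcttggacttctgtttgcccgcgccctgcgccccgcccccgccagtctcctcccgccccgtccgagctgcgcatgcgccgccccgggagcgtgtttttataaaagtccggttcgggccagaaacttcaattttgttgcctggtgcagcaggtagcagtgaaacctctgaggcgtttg
The Insc window held 4 E-boxes, of which those at −186 and −54 from the start were CAGATG and those at −167 and −165 overlapped each other. The window of the second Lrp8 start site held 4, with CAGATG at −56. That of the first Lrp8 start site (chr4:107802635-107802934), which is not printed, held none. The Rnd3 window held 1, a CAGATG on the other strand at −231, and the Cxcr4 window none.

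Over the 12 windows, 9 (75%) held a CANNTG, as did 72.3% of 32851 promoters of the same length. CAGATG, on either strand, was in 4 windows (33.3%) of 3 genes, Rnd3, Insc and Lrp8, against 17.2% of all promoters. CAGCTG was in 1 window, of Vldlr, against 16.3%, and CATATG in 0, against 3.9%, both of which forms are part of the CANNTG count. For both Lrp8 and Vldlr, the window of the first start site held no E-box. No window was found for Lzts1 and Rnd2. A match is a description of these letters and not a bound site.

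Between Neurog2 + Hmgb2 and Neurog2 cells, Trnp1 and Insc had the largest differences of the 10 genes, both below 1. In neither culture did any of the 10 differ by more than 1 between Neurog2 + Hmgb2 and Neurog2 cells, where 1.38% of all tested genes were higher and 1.16% lower by that much in the EGF + bFGF culture and 0.146% and 0.267% with bFGF only. The libraries of these groups overlapped for every one of the 10, whereas 5.87% of all genes were higher and 5.25% lower without overlap with EGF + bFGF, and 1.52% and 1.66% with bFGF only. Counts of 0 are near these shares, so nothing is read from them. With EGF + bFGF the differences ran from −0.75 ± 0.33 for Trnp1 (95% bounds −1.44 and −0.06) to 0.60 ± 0.49 for Reln. With bFGF only they ran from −0.51 ± 0.56 for Vldlr to 0.73 ± 0.50 for Insc (upper bound 1.76), with 0.54 ± 0.27 for Cxcr4 and 0.46 ± 0.37 for Lrp8. Against control, the 3 largest differences of Neurog2 + Hmgb2 cells in the EGF + bFGF culture were those of Lzts1 (2.96 ± 0.29), Insc (2.69 ± 0.47) and Rnd2 (1.76 ± 0.44), and in the bFGF culture those of Lzts1 (2.66 ± 0.33), Rnd2 (2.13 ± 0.50) and Insc (2.09 ± 0.53). These are descriptions without a test, and they share control libraries with the Neurog2 comparison. Replicate 2 of the EGF + bFGF Neurog2 + Hmgb2 group had the lowest value of its group for all 10 genes. Its microglia mean of 8.17 was the highest of the group, the others being at 4.91 and 6.61. Neurog2 + Hmgb2 replicate 1 of the bFGF culture was the lowest of its group for 9 of the 10, and its microglia mean of 6.61 was the lowest there. Both libraries had the lowest astrocyte marker means of their groups (9.62 and 9.90) and the lowest means of 7 oligodendrocyte lineage markers (6.88 and 7.12). Both also had the highest means of 9 endothelial markers (4.07 and 4.04), of which 2 had overall means at or below 1. The part of any of these markers in the result was not tested.

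The comparison of Neurog2 + Hmgb2 with the libraries labelled Hmgb2 takes its differences from neither control nor Neurog2-only libraries. Those libraries did enter the shared estimate of the spread, and with it the errors and p-values. The comparison sets a high against an intermediate Neurog2 level, where both groups carried the Hmgb2 virus. In the bFGF culture Hmgb2 itself was higher in every Neurog2 + Hmgb2 library than in any labelled Hmgb2, by 0.72 ± 0.27. With EGF + bFGF it differed by 0.17 ± 0.27, and the libraries overlapped. The part of the Hmgb2 level in the result was not tested. Lzts1 and Insc rose in both cultures, and Cxcr4 rose in the bFGF culture. Earlier results for Neurog2 + Hmgb2 against control were known when the genes were listed. These tests use the same Neurog2 + Hmgb2 libraries, so they are not independent of the choice of genes. The counts that follow are therefore descriptions, and nothing is read from them about the genes as a set. With EGF + bFGF, 2 of the 10 genes passed an adjusted p of 0.05 from limma as higher, where 0.751% of all tested genes did. With bFGF only, 3 of the 9 genes tested passed (Lrp8 was not tested there), where 0.693% did. None of the 10 passed as lower (0.165% and 0.216% of all genes). The libraries did not overlap for 6 of the 10 genes in either culture, against 4.64% and 5.69% of all tested genes. These 6 were Lzts1, Rnd2, Trnp1, Insc, Cxcr4 and Lrp8 in both. When only the groups compared entered the fit, which left fewer libraries to estimate the spread, 0 of the 10 passed in either culture.

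Lzts1 was at 6.32, 6.14, 6.35 and 6.31 in the Hmgb2-labelled libraries of the EGF + bFGF culture and at 8.75, 7.35 and 8.57 with Neurog2 + Hmgb2. Every Neurog2 + Hmgb2 library was higher, by 1.94 ± 0.31 (adjusted p = 0.0018). The bFGF Hmgb2-labelled libraries at 5.19, 5.96, 6.09 and 5.58 were all below the Neurog2 + Hmgb2 libraries at 7.19, 8.16 and 8.15. The rise was 2.13 ± 0.31 (adjusted p = 0.000981 from limma). Neurog2 itself differed by 3.16 ± 0.39 and 3.11 ± 0.39 between these groups. Leaving out any single library kept the call in both cultures, with adjusted p-values from limma of 0.000296 to 0.031.

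Insc was at 4.99, 4.39, 4.12 and 5.14 in the EGF + bFGF Hmgb2-labelled libraries and at 7.19, 6.14 and 7.22 with Neurog2 + Hmgb2, a rise of 2.19 ± 0.50 (adjusted p = 0.0298 from limma). The bFGF values were 5.13, 3.89, 4.15 and 4.18 in Hmgb2-labelled libraries and 6.79, 7.33 and 6.72 with Neurog2 + Hmgb2, a rise of 2.61 ± 0.50 (adjusted p = 0.00989 from limma). In both cultures the lowest Neurog2 + Hmgb2 library was above the highest Hmgb2-labelled one. The EGF + bFGF call was lost without Neurog2 + Hmgb2 replicate 1 (adjusted p = 0.0945 from limma) or 3 (0.235), and without Hmgb2 replicate 1 (0.055), 2 (0.0704) or 3 (0.11). The bFGF call was lost without Neurog2 + Hmgb2 replicate 2 (adjusted p = 0.0891 from limma). The size of the rise stayed within 2.01 to 2.87 in all of these fits.

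Cxcr4 was at 4.56, 5.16, 4.64 and 5.02 in the bFGF Hmgb2-labelled libraries and at 5.84, 6.42 and 6.33 with Neurog2 + Hmgb2, a rise of 1.35 ± 0.27 (adjusted p = 0.0128 from limma). The call was lost without Neurog2 + Hmgb2 replicate 2 (adjusted p = 0.123 from limma) or 3 (0.0997) and without Hmgb2 replicate 1 (0.0623). The EGF + bFGF values were 5.09, 5.07, 5.32 and 4.75 in Hmgb2-labelled libraries and 6.19, 5.53 and 6.20 with Neurog2 + Hmgb2. They did not overlap, but the difference of 0.91 ± 0.27 did not pass (adjusted p = 0.144 from limma).

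Rnd2 and Lrp8 were higher by similar amounts and did not pass. Rnd2 differed by 1.52 ± 0.46 in the EGF + bFGF culture (adjusted p = 0.166 from limma), where it was at 7.82, 7.53, 7.65 and 8.60 in Hmgb2-labelled and at 9.22, 8.61 and 10.45 in Neurog2 + Hmgb2 libraries. With bFGF only it differed by 1.78 ± 0.46 (adjusted p = 0.0714 from limma) and passed without Neurog2 + Hmgb2 replicate 1 (2.32, adjusted p = 0.0144 from limma). Lrp8 was at 9.21, 9.03, 9.10 and 9.13 in EGF + bFGF Hmgb2-labelled libraries and at 10.68, 9.39 and 10.80 with Neurog2 + Hmgb2. This difference of 1.17 ± 0.37 did not pass (adjusted p = 0.2 from limma) and passed at 1.62 without the low Neurog2 + Hmgb2 replicate 2 (adjusted p = 0.0371 from limma). Lrp8 in the bFGF culture went from 8.67, 9.29, 8.42 and 9.10 to 9.61, 10.91 and 10.65, a difference of 1.52 ± 0.37 that is given without a test, because the study names Lrp8 from these Neurog2 + Hmgb2 libraries.

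The remaining genes did not pass in either culture. Trnp1 differed by 0.68 ± 0.31 and 0.55 ± 0.31 (adjusted p = 0.425 and 0.56 from limma), and these values were 0.32 without EGF + bFGF Neurog2 + Hmgb2 replicate 1 and 0.33 without bFGF Hmgb2 replicate 3. Vldlr differed by 0.80 ± 0.56 and 0.78 ± 0.56, with 95% intervals that reached from −0.38 to 1.96. Rnd3 was lower by −0.39 ± 0.26 and −0.73 ± 0.26 (adjusted p = 0.622 and 0.236 from limma). Dab1 differed by −0.03 ± 0.42 and 0.35 ± 0.42, and Reln by 0.59 ± 0.46 and 0.32 ± 0.46. When single libraries were left out, Reln ran from 0.17 to 0.83 and from −0.09 to 0.81, the lowest values being those without Neurog2 + Hmgb2 replicate 3 and replicate 2.

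Microglia markers moved with this comparison. Their mean was 4.32 to 4.96 in the EGF + bFGF Hmgb2-labelled libraries and 4.91 to 8.17 with Neurog2 + Hmgb2, and 5.13 to 6.78 and 6.61 to 7.34 in the bFGF culture; 1 of the 18 markers, over all libraries, had a mean at or below 1. Without the 7 libraries above 7, 5 of the 10 genes passed in the EGF + bFGF culture, with Lzts1 at 2.38, Insc at 2.55, Rnd2 at 1.93, Lrp8 at 1.62 and Cxcr4 at 1.13. Of the bFGF differences 3 passed, with Lzts1 at 1.96, Insc at 2.42 and Cxcr4 at 1.24. With all libraries these were 2.13, 2.61 and 1.35.

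**Figure D2:**
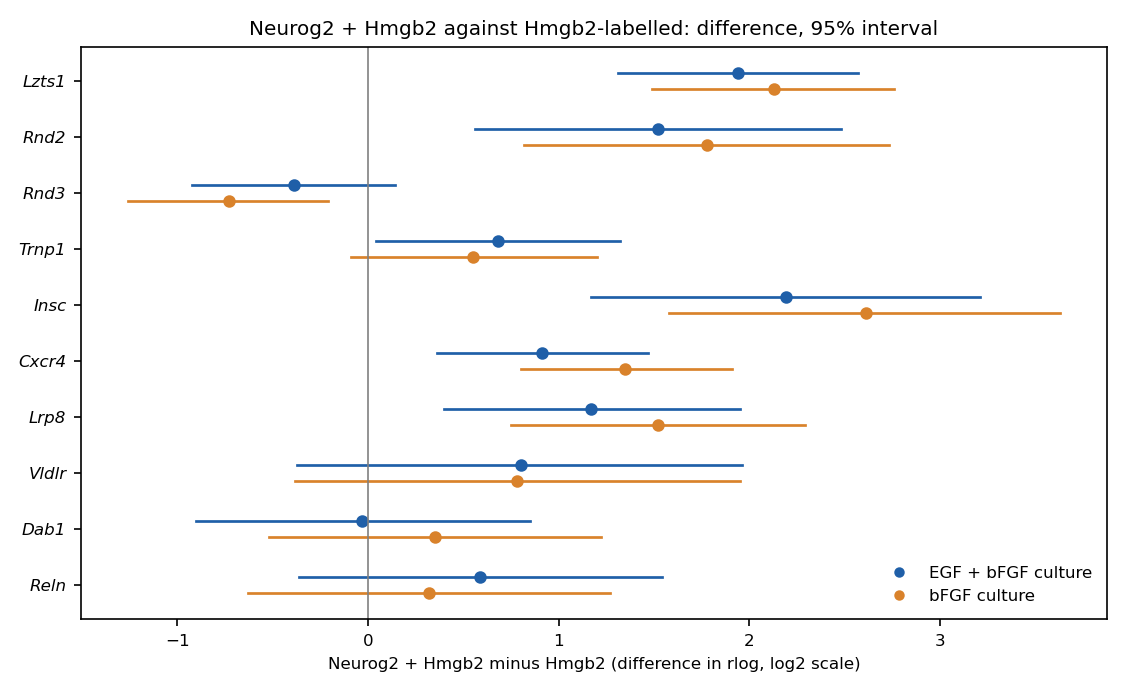
Points give the difference in rlog (log2 scale, x axis) between Neurog2 + Hmgb2 and Hmgb2-labelled libraries for each of the 10 genes, with bars for the 95% interval of the limma fit, in the EGF + bFGF culture (blue) and the bFGF culture (orange). Lzts1 and Insc lay at 1.94 to 2.61, and the intervals of both cultures overlapped for every gene.

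The difference between Neurog2 + Hmgb2 and Hmgb2-labelled libraries was not detectably larger in either culture. The difference of the responses (EGF + bFGF minus bFGF) ran from −0.44 ± 0.38 for Cxcr4 to 0.35 ± 0.36 for Rnd3. Lrp8 (−0.35 ± 0.53) was not tested here, 0 of the other 9 genes passed, and 0 of all tested genes (0%) passed in limma, where 151 had an unadjusted p under 0.05. For Insc the interval of the difference, −0.42 with 95% bounds of −1.87 and 1.03, would allow a sizeable difference in either direction. For Lzts1 it was −0.18, with bounds of −1.08 and 0.71.

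In the Hmgb2-labelled libraries, which also held raised Neurog2 mRNA, 9 of the 10 genes were within 1 of control in the EGF + bFGF culture, and all 10 with bFGF only, without a test. The exception was Lzts1, whose 4 Hmgb2-labelled libraries in the EGF + bFGF culture (6.14 to 6.35) were all above the 5 controls (4.90 to 5.65), by 1.02 ± 0.27. Of all tested genes 0.0382% were higher and 0.223% lower by more than 1 in that contrast, and 0.471% were higher without overlap. The shares in the bFGF culture were 0.0191% and 0.0318%. With bFGF only, Lzts1 was 0.53 ± 0.31 above control, and the groups overlapped. Neurog2 mRNA differed by 2.66 ± 0.35 and 2.17 ± 0.39 between the same groups, and its part in the level of Lzts1 was not tested. Insc, Rnd2 and Lrp8 differed by 0.50 ± 0.44, 0.24 ± 0.41 and 0.08 ± 0.33 between Hmgb2-labelled and control libraries in the EGF + bFGF culture.

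**Figure D3:**
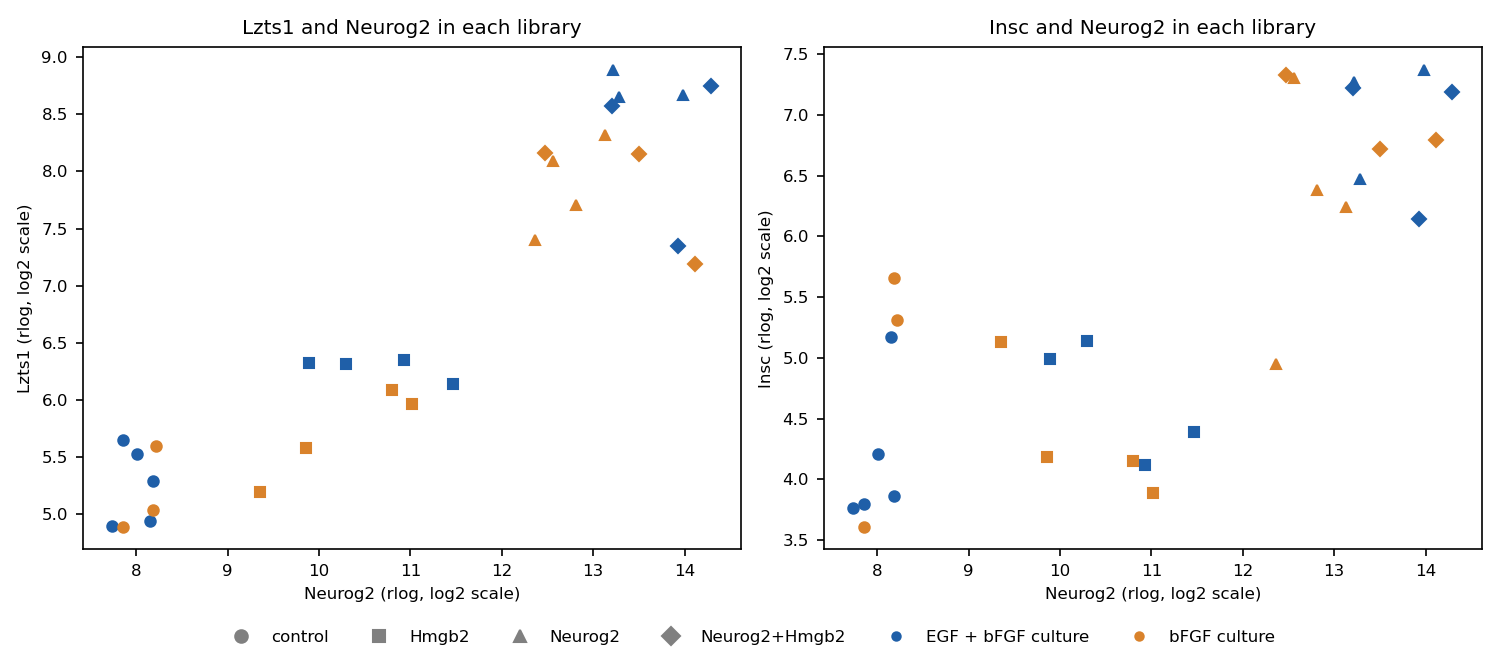
Each point is 1 library, with the rlog value of Neurog2 on the x axis and that of Lzts1 (left) or Insc (right) on the y axis (log2 scales), by virus (shape) and culture (colour). The 8 Hmgb2-labelled libraries lie between the others for Neurog2, at 9.35 to 11.47, with Lzts1 at 5.19 to 6.35 and Insc at 3.89 to 5.14, the latter within the range of the controls.

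The culture itself was compared in the Hmgb2-labelled libraries, and 0 of the 10 genes passed, as did 0 of all tested genes (0%) in limma, where 770 had an unadjusted p under 0.05. Reln came closest. It was at 6.51, 5.79, 5.00 and 6.16 with EGF + bFGF and at 6.79, 7.30, 6.70 and 7.25 with bFGF only. Every bFGF library was higher, as for 1.7% of all tested genes, and the difference (EGF + bFGF minus bFGF) of −1.14 ± 0.43 had 95% bounds of −2.02 and −0.26 but an adjusted p of 0.961 from limma. Lzts1 did not overlap in the opposite direction (0.58 ± 0.28, adjusted p = 1 from limma), as for 1.11% of all genes.

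Reln was lower in the EGF + bFGF culture under every virus, by −0.64 ± 0.44 in control, −0.83 ± 0.46 in Neurog2 and −0.87 ± 0.49 in Neurog2 + Hmgb2 cells, where the libraries overlapped. In the embryonic cortex Reln is made mainly by Cajal-Retzius cells. Of 5 markers of these cells, Lhx1 (0.51) and Lhx5 (0.29) had overall means below the filter of 1, and Calb2, Trp73 and Ndnf were at 2.27, 2.69 and 4.55. The mean of the 5 was 1.64 to 1.81 in EGF + bFGF controls and 2.10 to 2.61 in bFGF controls, with no overlap. In Hmgb2-labelled libraries it was at 1.92, 1.82, 1.89 and 1.81 against 2.39, 1.80, 2.68 and 2.37, which overlapped. The mean of 7 oligodendrocyte lineage markers moved with the culture, with group medians of 7.24 to 7.53 in EGF + bFGF and 7.87 to 8.58 in bFGF. In the Hmgb2-labelled libraries it was at 7.55, 6.93, 6.72 and 7.84 against 7.78, 7.58, 7.95 and 8.78, so these ranges overlapped, and none of the 7 markers had a mean at or below 1. The part of either marker list in the level of Reln was not tested.

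**Figure D4:**
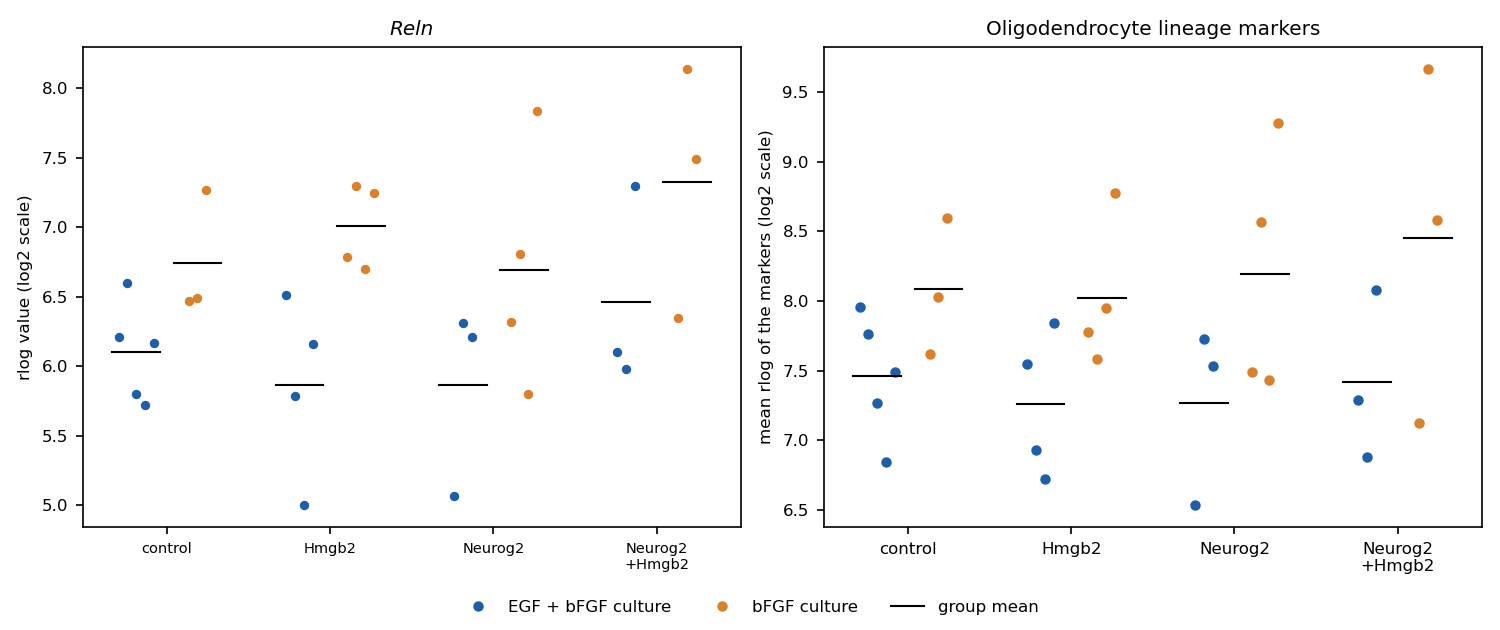
Points give, per library, the rlog value of Reln (left) and the mean rlog of 7 oligodendrocyte lineage markers (right), by virus (x axis) and culture (colour), with black lines at group means (y axes on a log2 scale). The bFGF groups of Reln have means of 6.69 to 7.33 and the EGF + bFGF groups of 5.86 to 6.46.

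In the lists of further pathway genes the counts of called genes were small. Of 19 further genes of the reelin pathway, among them the kinases Fyn and Src, the Rap1 activator Rapgef1 and Pafah1b1, 0 passed in any tested comparison. With 0.751% and 0.693% of all tested genes called higher and 0.165% and 0.216% lower in the EGF + bFGF and bFGF cultures, a count of 0 is near the background and says nothing particular of these genes. Their median was −0.10 and −0.02 for Neurog2 + Hmgb2 against Hmgb2 in the EGF + bFGF and bFGF cultures, beside 0.01 for all tested genes. Only Mylip and the integrin gene Itga3 of this list differed by more than 1 between Neurog2 and control cells, without a test. Mylip, the ligase that degrades lipoprotein receptors, was 1.69 ± 0.32 higher in the bFGF culture, where 2.24% of all tested genes were higher by more than 1. With EGF + bFGF it differed by 0.54 ± 0.31, and the libraries overlapped. Itga3 differed by −1.01 ± 0.37 with EGF + bFGF, where the libraries overlapped, and by −1.20 ± 0.39 with bFGF only, where they did not. The share of all tested genes lower by more than 1 is not given here. Nothing is therefore read from the differences of Mylip and Itga3. Of 7 genes around Cxcr4, Cxcl12 and the scavenging receptor Ackr3 included, and of 9 partners of Insc at the spindle, 0 passed, also near the background.

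Among 22 genes of junctions and delamination, of which 21 were tested, 1 passed in the EGF + bFGF culture, where 0.751% of all genes were called higher. Pard3, a polarity protein of apical junctions, rose by 0.64 ± 0.12 in the EGF + bFGF culture with Neurog2 + Hmgb2 against Hmgb2 (adjusted p = 0.00664 from limma). The tested Snail, Scratch and cadherin genes of that list did not pass. Of 27 migration genes, among them regulators of the cytoskeleton, 2 rose with EGF + bFGF (0.751% of all genes) and 1 with bFGF only (0.693%). Dcx, the microtubule protein of migrating neurons, rose by 3.22 ± 0.59 (adjusted p = 0.00664 from limma) and 3.10 ± 0.59 (0.00989), and Cdk5r1, the p35 activator of Cdk5, rose by 1.28 ± 0.31 in the EGF + bFGF culture (adjusted p = 0.0422 from limma). The medians of these lists, −0.17 to 0.06, were near that of all tested genes. These lists were written with earlier results in view.

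Over the 29 libraries the genes most like each responder were named by Pearson correlation, as a description over libraries that share their groups. Lzts1 was most like Cplx2 (0.964), Hes6 (0.962) and the Notch ligand gene Dll4 (0.946), and Rnd2 was most like the sodium channel gene Scn8a (0.969), Rnf122 (0.963) and Dll3 (0.963). Lrp8 went with Zmat4 (0.933), Vps37b (0.932) and Insm1 (0.931), and Insc with Prmt8 (0.914), Fam118b (0.896) and Mfng (0.896). Cxcr4 went with Ankrd28 (0.901), Cnr1 (0.887) and Pex5l (0.883), and Vldlr with Pcmtd1 (0.916), Nxph4 (0.882) and Sesn3 (0.88). The likeness was least close for Trnp1 (4930447F24Rik, 0.854, Afap1, 0.846, and Olfml2b, 0.845).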

How the data were processed

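RNA of sorted astroglial cells was measured in 29 samples. The authors used the SMART-Seq v4 cDNA kit, which loses the strand, STAR with mm10, HTSeq 0.9.1 on GENCODE genes, and DESeq2 (1.36.0 in the submitters' processing notes, another version in the methods). The deposited values are regularized log2 values, which the authors normalized for library size and which are shrunken for weakly expressed genes. No counts were used. The methods of the study give an approximate number of reads per sample, but the depth of each library is unknown.

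Groups followed the sample labels, and 0 value columns stayed unmapped. A mean rlog of at least 1 was required, which 15719 of 25239 genes met. Group means were estimated with limma 3.58.1 (R 4.3.3), using every library, 21 residual degrees of freedom and a variance trend. P-values were adjusted over the 15719 genes (Benjamini-Hochberg). The table holds no counts, so limma took the place of the count test of the study. Tested were Neurog2 + Hmgb2 against Hmgb2 in each culture, the difference of these, and the cultures in Hmgb2 cells. The procedure was tested on simulated data. The members and lists were chosen with earlier results of these data known. Named genes were the 10 members, the 3 tested genes most correlated with each member that was over 1 higher with Neurog2 in either culture, and up to 6 called genes per list. Mylip and Itga3, which were not called, were named outside this rule. Gene positions are from GENCODE M21 on GRCm38, and promoters from RefSeq. Alternatives were no filter or a mean of at least 4, median centring, quantile normalization, fitting the compared groups alone, array weights, no trend or a robust one, replicate blocks, and leaving out each library. Leaving out libraries with high microglia markers was added after seeing the data. Figures were drawn with matplotlib 3.10.9 in Python 3.11.15.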

Additional observations from a re-analysis of the deposited data

Results flagged for a closer look

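Rnd3 in the bFGF culture was at 10.1 in Hmgb2 replicate 2, far from the other 3 libraries of that group, the nearest of which was at 10.99. The gap was 0.887 of the range of the group. It was the only such value among 40 groups of 4 or 5 libraries checked for the 10 genes, and chance alone flags about 1 in 20 such groups.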

How the results depend on the processing

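Of the comparisons tested, the number of the 10 genes called higher for Neurog2 + Hmgb2 against Hmgb2 depended on the fit. In the EGF + bFGF culture it was 2, and it was 1 with no filter, 0 when only the groups compared were fitted, 5 with array weights, 5 without the 7 libraries with high microglia markers, and 1 to 3 when single libraries were left out. With bFGF only it was 3, and it was 0 with only the groups compared, 5 with array weights and 1 to 4 when single libraries were left out (1 without Neurog2 + Hmgb2 replicate 2). The array weights did not fully converge. Of all genes, 144 and 143 were called in these cultures, 107 and 85 with no filter or a mean of at least 4, 0 and 6 with only the groups compared, 674 and 1726 with array weights, 197 and 65 without the microglia-high libraries, and 23 to 175 and 34 to 225 when single libraries were left out. In the other tested comparisons none of the 10 genes that were tested passed under any setting run (Lrp8 was not tested for the difference between cultures). A replicate block within cultures could not be fitted for the comparison of the cultures, since the block holds the culture. No direction of a called gene was reversed. Over all groups, 25 of 38 same-numbered pairs of libraries correlated above 0.1 (−0.61 to 0.81). Every such pair did so for Neurog2 + Hmgb2 and Hmgb2 with EGF + bFGF (0.22 to 0.78), where the replicate block changed no call of the 10 genes (2 passed; 139 or, within cultures, 122 of all genes), but not with bFGF only (−0.28 to 0.47). With the block, Rnd2 in the bFGF culture passed (1.96, adjusted p = 0.0351 from limma; within cultures 2.06, adjusted p = 0.0232), and 194 or, within cultures, 264 genes were called there. Depth per library is unknown, so no limit of detection could be given.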

Other observations

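Rnd2 and Reln deviated from their group means together. Their correlation over the 29 libraries was 0.85 after the group means were removed and 0.51 before, as a description over libraries that share their culture and preparation. Reln and Rnd2 were both at their highest in bFGF Neurog2 + Hmgb2 replicate 2 (8.14 and 10.76), and in bFGF Neurog2 replicate 4 they were at 7.84 and 10.69. In EGF + bFGF Neurog2 + Hmgb2 replicate 3 they were at 7.30 and 10.45, each the highest of its group. The group means of these genes correlated at 0.27 only. These 3 libraries also had the highest oligodendrocyte lineage marker means of their groups, at 9.67, 9.28 and 8.08, whose part in the correlation was not tested.

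Vldlr stood high in single libraries with and without the Neurog2 virus. In the bFGF culture control replicate 3 (9.89) and Hmgb2 replicate 3 (10.04) exceeded all other libraries without the Neurog2 virus, and in the EGF + bFGF culture control replicate 4 (9.36) and Hmgb2 replicate 3 (9.18) did so. Over the 29 libraries, its deviations from the group means correlated at 0.56 with those of Rnd3 and at −0.57 with those of Insc, while the group means correlated at −0.54 and 0.84.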
